A study of Mus musculus with 16 samples.

Results

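The cMyc+prePB subpopulation is 1 of 4 subpopulations of cMyc-expressing GC B cells that were sorted from mouse spleen for RNA sequencing. Its members here are the 4 libraries whose labels give the cell type cMyc+ prePB, out of 16 libraries in all. They were compared with the equal-weight mean of the cMyc+early, cMyc+lateCD23int and cMyc+lateCD23lo subpopulations, 4 libraries each. The question was which genes set prePB apart from every other group.

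All libraries came from male and female cMyc gfp/gfp reporter mice, in which a GFP-cMyc fusion protein is made from the endogenous locus, so that every group carries this allele and none is without it. Mice of 6 to 15 weeks had received sheep red blood cells (SRBC) intraperitoneally, and spleens were taken 7 d later. B cells were enriched by removing CD43+ cells and sorted as B220+ CD38low CD95+ cMycGFP+ cells. Those that were CD69hi made up prePB. Early cells were CD23hi CD21/35hi, lateCD23int cells were intermediate for both, and lateCD23lo cells were low for both. The paper gated early and late cells within the light zone, after CD69hi and dark zone (CXCR4hi CD86lo) cells had been set aside. It did not define prePB by these zone markers and describes it as mostly, not only, light zone cells. The prePB gate used neither CD23 nor CD21/35, and CD43, by which cells were removed, is also found on plasma cells. How many animals went into a library, and whether libraries with the same replicate number came from the same animals, is not given in the sources used here. The p-values therefore measure only the spread between these libraries, which may be technical.

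A GC B cell selected in the light zone by T cell help induces cMyc for a short time and then either returns to the dark zone to divide and mutate its antibody genes, or leaves the GC as a memory B cell or a plasmablast. The plasma cell program is set by IRF4 and Blimp-1, encoded by *Irf4* and *Prdm1*. Blimp-1 shuts off genes of B cell identity, and XBP1 then widens the endoplasmic reticulum for antibody secretion. BATF, a transcription factor of the AP-1 family, acts together with IRF4 in activated lymphocytes and is needed for class switching.

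Recovered reads per library ranged from 19812080 to 25795815 and detected genes from 14650 to 15573. Mitochondrial transcripts took 1.339% to 2.947% of the reads. Ribosomal protein transcripts took 5.278% to 6.222% in prePB and 4.019% to 5.827% in the others. Immunoglobulin transcripts took 1.495% to 2.649% in prePB, highest in replicate 1, and 1.352% to 1.948% in the others. The values are normalized counts, that is, reads per gene scaled by a single size factor in every library. In bulk RNA, fewer cells that express a gene cannot be told apart from less RNA per cell.

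Of 12505 tested genes, 78 were higher in prePB (0.624%) and 133 were lower (1.06%) at a limma adjusted p under 0.05. Counts of called list members below are to be read against these shares. This fit had the replicate number as a block. Without the block, 13 (0.104%) and 26 (0.208%) passed, all of them among the former. The median log2 fold change was 0.85 among the genes called higher and -0.85 among those called lower, against 0.003 over all tested genes. A gene was taken to set prePB apart where it was called and all 4 prePB values lay above, or all below, the 12 others. This held for 28 higher and 24 lower genes. Irrespective of the call, 41 tested genes (0.328%) had all prePB values above the others and 33 (0.264%) below. The quasi-likelihood test of edgeR on the recovered reads called 81 genes higher and 89 lower, among them 49 of these 52. DESeq2 called 241 and 372, among them all 52. The counts were set in part by single libraries. Without prePB replicate 1, 2, 3 or 4, 30, 27, 22 or 32 genes were called higher and 61, 64, 54 or 56 lower. Without lateCD23lo replicate 3 they were 38 and 80, without lateCD23int replicate 1 47 and 87, and without lateCD23int replicate 2 or 4 49 and 97 or 48 and 95. Of the 52 genes, 21 passed in all 16 leave-one-out fits, each with another library omitted, and the lowest number for any of them was 4.

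**Figure D1:**
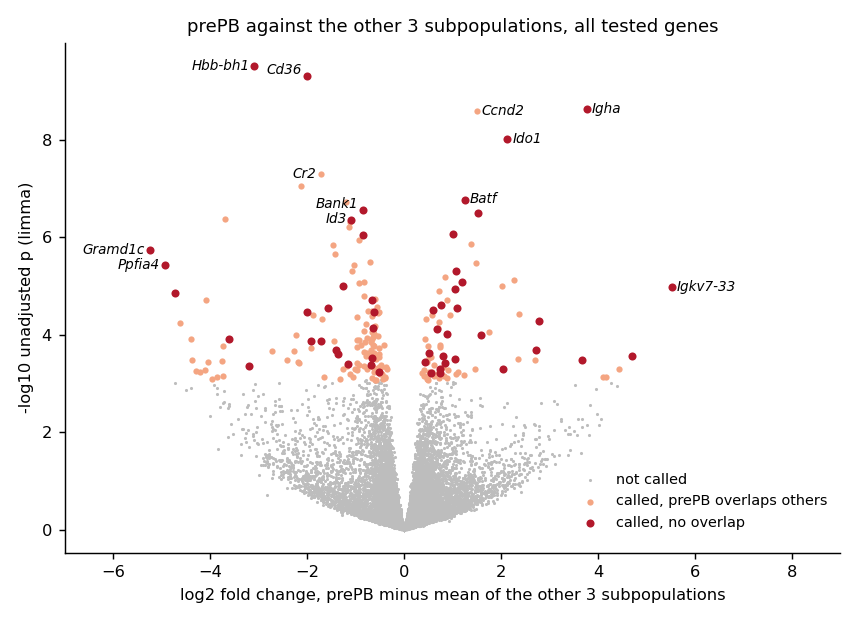
Log2 fold change of prePB against the mean of the other 3 subpopulations (x axis) and -log10 of the unadjusted limma p (y axis), 1 point per tested gene. Dark red points are the 28 higher and 24 lower genes without overlap between prePB and the 12 other libraries, and *Igha*, *Ido1*, *Cd36* and *Hbb-bh1* stand highest among them.

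The promoters of 3 genes, picked by hand, are printed. *Nfkbia* is a known NF-κB target, and *Plscr1* and *Tgtp1* are known to be induced by interferon. Among genes of the factors that bind such motifs, *Stat5a* was higher in prePB and the NF-κB gene *Rel* was lower. Whether these factors act on the 3 genes was not tested. Each run is 300 bases of RefSeq sequence, 250 before and 50 after the annotated start, read 5′ to 3′ on the gene's strand. *Nfkbia* lies at chr12:55492598-55492897 (minus strand), *Plscr1* at chr9:92249944-92250243 (plus strand) and *Tgtp1* at chr11:48992197-48992496 (minus strand), build GRCm38.p6. Capitals mark matches on either strand to GGGNNTTTC, part of the κB motif, in *Nfkbia* and to TTCNNNGAA, the STAT motif, in the other two.
Nfkbia: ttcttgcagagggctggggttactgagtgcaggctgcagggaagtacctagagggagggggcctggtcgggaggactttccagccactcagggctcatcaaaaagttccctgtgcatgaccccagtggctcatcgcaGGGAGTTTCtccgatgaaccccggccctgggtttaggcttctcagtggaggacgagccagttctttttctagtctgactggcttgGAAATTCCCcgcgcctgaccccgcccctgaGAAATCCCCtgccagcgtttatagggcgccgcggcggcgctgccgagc
Plscr1: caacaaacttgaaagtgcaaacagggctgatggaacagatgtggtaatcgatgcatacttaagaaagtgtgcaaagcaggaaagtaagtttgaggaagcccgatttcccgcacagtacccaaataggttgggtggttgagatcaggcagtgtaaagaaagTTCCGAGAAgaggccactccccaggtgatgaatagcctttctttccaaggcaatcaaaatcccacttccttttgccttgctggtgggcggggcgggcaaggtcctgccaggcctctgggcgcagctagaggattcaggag
Tgtp1: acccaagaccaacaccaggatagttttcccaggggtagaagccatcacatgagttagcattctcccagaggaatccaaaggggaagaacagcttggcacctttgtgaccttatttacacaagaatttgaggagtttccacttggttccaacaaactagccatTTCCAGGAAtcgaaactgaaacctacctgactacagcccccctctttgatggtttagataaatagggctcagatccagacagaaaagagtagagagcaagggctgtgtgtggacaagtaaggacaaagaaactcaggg

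The *Nfkbia* promoter held 3 κB matches, and those of *Plscr1* and *Tgtp1* 1 STAT match each. Of the tested genes, 8618 had a promoter in the RefSeq table, as did 20 of the 28 higher and 19 of the 24 lower genes that set prePB apart. A gene was counted where any of its RefSeq promoters held a match. The STAT motif occurred in 8.27% of the tested genes with a promoter, in 4 of the 20 (*Pkib*, *Plscr1*, *Sod2*, *Tgtp1*) and in 1 of the 19. The κB letters occurred in 5.15% of the tested genes with a promoter and in 1 of each set. The AP-1 motif TGANTCA, which BATF-containing dimers bind, occurred in 5.57%, in 2 of the 20 and in 1 of the 19. The letters GAAANNGAA of the IRF motif occurred in 8.77%, in 2 of the 20 and in 3 of the 19, and the E-box CACGTG, which cMyc binds, in 12.3%, in 3 of the 20 and in 2 of the 19. The *Nfkbia* and *Tgtp1* promoters each held 1 IRF match as well, which did not overlap the letters in capitals. These matches describe letters in a short window, and whether a factor binds there was not tested.

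Antibody genes gave the largest well-measured increase. *Igha*, the constant region of IgA (chromosome 12, 113254830 to 113260236, GRCm38), had 21278, 2686, 10769.8 and 6557 normalized counts in prePB replicates 1 to 4. In the 12 other libraries it ranged from 339.8 to 1148 with a median of 578. All prePB values lay above all others, although they differed among themselves more than the others did. The log2 fold change was 3.77 ± 0.31 (SE), or 13.6-fold (limma adjusted p = 7.82e-06, 0.000124 without the block), and it passed against early, lateCD23int and lateCD23lo one by one (limma adjusted p = 0.000102, 0.000154 and 0.000239). *Ighg3* and *Ighg2c*, constant regions of 2 IgG subclasses, were also higher. *Ighg3* had 3363, 5247, 3712 and 3171 in prePB against 642 to 3313 elsewhere (log2 fold change 1.39 ± 0.19, limma adjusted p = 0.00089, 0.0162 without the block). Only lateCD23lo replicate 2 reached into the prePB range. *Ighg2c* had 857, 7148, 1814 and 731 in prePB, with replicate 2 far above, against 84.9 to 2062 (log2 fold change 2.27 ± 0.35, limma adjusted p = 0.00311, 0.128 without the block). Both passed against early and lateCD23int but not against lateCD23lo (limma adjusted p = 0.0991 and 0.109).

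Of 13 listed and tested genes, the immunoglobulin constant genes and *Jchain*, 4 were called higher, against 0.624% of all tested genes, and none lower. Their median log2 fold change was 0.225. The fourth, *Ighg2b*, was at 9676 ± 4397 (SD, n = 4) in prePB and rested on few libraries, passing in 2 of the 16 leave-one-out fits and had a limma adjusted p of 0.197 without the block. *Ighg1*, the most abundant IgG transcript here, had 22332 to 34087 in prePB and 19665 to 35197 elsewhere, and *Ighm* had 38272 to 56609 and 39786 to 64145. Neither passed (limma adjusted p = 0.428 and 0.845). *Jchain*, the joining chain of secreted IgA and IgM, had 104886 in prePB replicate 1 and 31885 to 43640.1 in the others, within the range of 18862 to 84469.5 elsewhere (limma adjusted p = 0.481). Constant genes are near-identical in part and reads can be split between them, so that single values are uncertain. *Igkv7-33*, a kappa variable gene, had 1583, 48.0, 427 and 902 in prePB and 0 to 30.6 elsewhere (log2 fold change 5.53 ± 0.87, limma adjusted p = 0.00357), with no overlap. Against lateCD23int alone it did not pass (limma adjusted p = 0.0625), and reads of variable genes can be shared too.

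**Figure D2:**
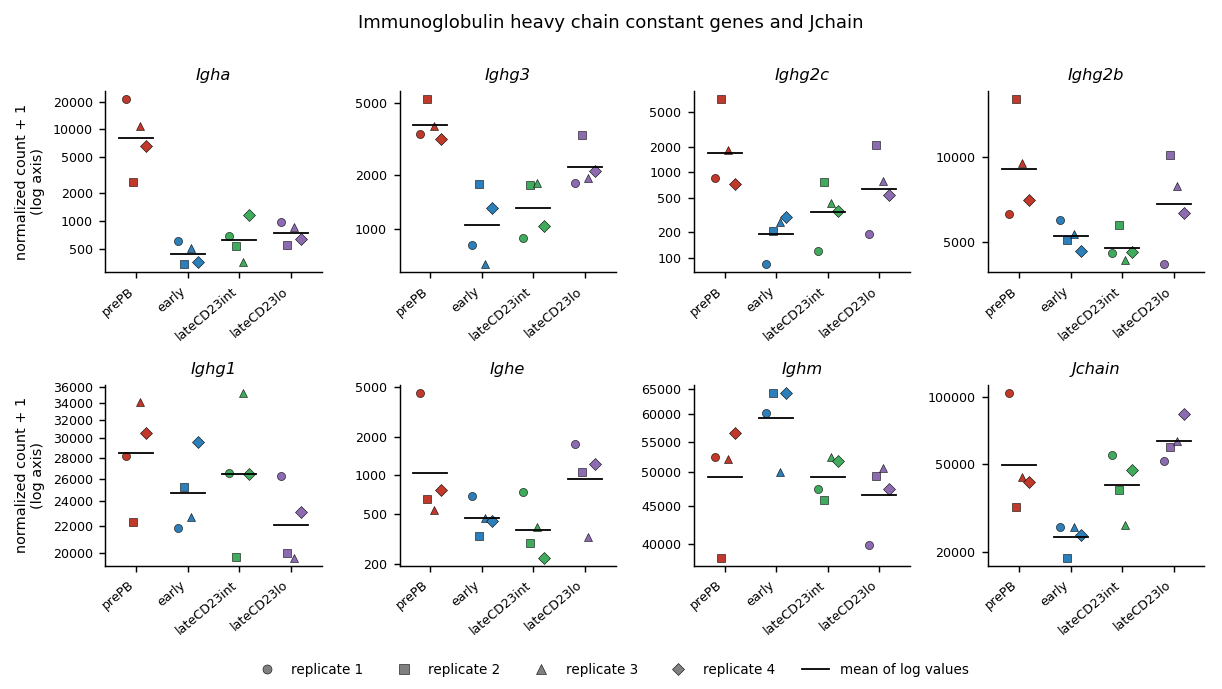
Normalized counts + 1 (log axis) of 7 heavy chain constant genes and *Jchain* in each library, by subpopulation, with markers for the replicate and a line at the mean of the log values. The *Igha* values of prePB (2686 to 21278) lie above all others (339.8 to 1148), while those of *Ighg1*, *Ighm* and *Jchain* overlap.

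None of 9 tested plasma cell transcription factors passed, and their median log2 fold change was 0.151. *Irf4* had 505, 870, 968 and 573 in prePB against 287 to 1025 elsewhere (limma adjusted p = 0.856). *Xbp1* had 5894, 4275, 5155 and 3956 against 3284 to 5091 (0.32 ± 0.13, limma adjusted p = 0.26). *Prdm1* had 119 in prePB replicate 2 and 6.31 to 9.02 in the other three. Its level was 0 to 7.96 in early and 10.2 to 133 in the late subpopulations. These are RNA values. The paper likewise found no significant rise of *Prdm1* or *Irf4* expression in prePB. It did report a larger share of Blimp1-GFP+ cells and relatively higher IRF4 levels there, and enrichment of a plasma cell gene signature against early. Of 19 plasma cell surface and secretion genes, 1 was called, *Slc3a2*, the heavy chain of an amino acid transporter (0.48 ± 0.12, limma adjusted p = 0.0465). It passed in only 2 of the 16 leave-one-out fits, and its adjusted p was 0.264 without the block. *Derl3*, an ER degradation factor, had 555, 1140.4, 866 and 1136 against 294 to 732 and did not pass (limma adjusted p = 0.0989). Of 25 ER folding genes, 18 had a log2 fold change above 0 and 1, *Creld2*, was called (0.62 ± 0.14, limma adjusted p = 0.0359), in 8 of these fits. *Fam46c*, which stabilises antibody transcripts in plasma cells, set prePB apart, with 375, 478, 449.9 and 441 against 4.98 to 352 (2.72 ± 0.57, limma adjusted p = 0.0235, 0.232 without the block). It no longer passed without prePB replicate 1 or 3 (limma adjusted p = 0.123 and 0.0978).

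*Batf* and *Ccnd2* were higher in prePB than in each of the other subpopulations. *Batf* had 4969, 5517, 6524 and 6937 in prePB and 1667 to 4376 elsewhere, with a median of 2405. No value overlapped, and the log2 fold change was 1.26 ± 0.14 (limma adjusted p = 0.000256, 0.000562 without the block). It was the only one of 14 tested BATF and AP-1 genes to be called. *Ccnd2*, cyclin D2, which drives entry into the cell cycle, had 6412, 13639.5, 12710.1 and 11288 in prePB and 1999 to 6965 elsewhere. Replicate 1 was lowest in each of the 4 subpopulations, and prePB exceeded the other 3 libraries within each number (1.5 ± 0.13, limma adjusted p = 7.82e-06). It was the only called gene of 18 G1 cyclins, CDKs and inhibitors. Both genes passed in each of the 16 leave-one-out fits and against each of the 3 subpopulations. *Gadd45g*, a stress-induced growth arrest gene, had 1103 to 1322 in prePB and 228 to 1002 elsewhere (1.19 ± 0.18, limma adjusted p = 0.00322). It did not pass against early alone (limma adjusted p = 0.318).

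All 30 tested MYC targets had a log2 fold change above 0, with a median of 0.448. Of these, 6 were called, against 0.624% of all tested genes called higher: *Srm*, *Nop56*, *Ldha*, *Nolc1*, *Ncl* and *Rrp9*. Under quantile normalization 29 of the 30 were above 0. Without the block none of the 30 passed. *Srm*, spermidine synthase, had 1915, 3486, 3538 and 4106 in prePB against 688 to 3581 (0.85 ± 0.13, limma adjusted p = 0.0028, 0.275 without the block). *Nop56*, a factor of ribosome assembly, had 14150.1, 17404, 19315 and 18819 against 10284 to 14289 (0.45 ± 0.08, limma adjusted p = 0.00943). For both genes, prePB was above the other 3 libraries in each number and replicate 1 was the lowest of prePB. *Nop56* no longer passed without prePB replicate 3 or 4 (limma adjusted p = 0.0847 and 0.0604). *Myc* itself had 2300, 4165, 4411 and 4417 against 857 to 3817 and did not pass (1.04 ± 0.26, limma adjusted p = 0.0538). All 4 subpopulations were gated on cMyc-GFP. None of 34 mitosis genes was called, 3 of them had a log2 fold change above 0, and the median was -0.304. Rescaling the libraries to 1 total and quantile normalization called 1 and 3 of them lower. None of 30 DNA replication genes was called (median -0.0137).

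*Ido1*, which degrades tryptophan and is induced by interferon, had 2457, 2531, 2391 and 3990.1 in prePB and 222 to 1654 elsewhere, with a median of 622. There was no overlap and the log2 fold change was 2.13 ± 0.20 (limma adjusted p = 2.38e-05, 0.000562 without the block). Levels of the other groups were ordered early (1117 ± 383, SD, n = 4), lateCD23int (584 ± 159) and lateCD23lo (444 ± 184), and neighbours in this order overlapped. *Plscr1*, a phospholipid scramblase induced by interferon, had 3283, 4744, 5249 and 6027 against 932 to 3133 (1.53 ± 0.18, limma adjusted p = 0.000368). *Ido1* and *Plscr1* passed against each of the 3 subpopulations and in each of the 16 leave-one-out fits. *Tgtp1*, an interferon-inducible GTPase with a near-identical copy, had 561, 3453, 1201 and 663 against 8.38 to 407 (2.78 ± 0.51, limma adjusted p = 0.0101, 0.0932 without the block). Replicate 2 stood out, and the gene no longer passed without prePB replicate 1 or 2 (limma adjusted p = 0.0588 and 0.0726). *Ido1*, *Plscr1* and *Tgtp1* were taken from the genes that set prePB apart. Interferon-induced genes were not counted as a list, so their direction as a set is not shown here.

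Of 24 tested cytokine receptors and STAT genes, 3 were called, all higher, among them *Stat5a* and *Il2ra*, and the list's median log2 fold change was 0.452. Of all tested genes, 0.624% were called higher. *Stat5a*, which relays signals of cytokine receptors, had 1461, 971, 1313 and 1489 against 369 to 904 (1.10 ± 0.19, limma adjusted p = 0.0075, 0.0202 without the block), and 0.0515 without prePB replicate 3. *Il2ra*, the α chain of the interleukin-2 receptor, had 507, 413, 368 and 762 against 29.7 to 235 (2.04 ± 0.47, limma adjusted p = 0.0392, 0.0723 without the block). It passed in 7 of the 16 leave-one-out fits, in none of them without a prePB library. *Nfkbia*, the inhibitor IκBα and itself an NF-κB target, had 11493, 12953, 13776 and 10569 against 5008 to 10455 (0.60 ± 0.10, limma adjusted p = 0.00787, 0.0783 without the block). Without prePB replicates 2, 3 and 4 its adjusted p was 0.0517, 0.0628 and 0.0553. In the list of 26 NF-κB genes 2 were higher (*Nfkbia*, *Ebi3*) and 2 lower (*Nfkbid*, *Rel*), against 0.624% and 1.06% of all tested genes. *Nfkbid*, another member of the inhibitor family, had 313, 90.1, 124 and 156 against 256 to 912 (-1.69 ± 0.31, limma adjusted p = 0.00943, 0.0107 without the block), with prePB replicate 1 inside the range of the others. It no longer passed without prePB replicate 2 or 3 (limma adjusted p = 0.0705 and 0.0572).

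Among further higher genes, *Gstt2*, a glutathione transferase that lies beside close relatives, had 16165, 20955, 17283 and 19723 against 6226 to 13965 (1.0 ± 0.13, limma adjusted p = 0.000649). *Pkib*, an inhibitor of protein kinase A, had 3379 to 4146 against 1123 to 2430.2 (1.08 ± 0.16, limma adjusted p = 0.00224), though not higher by the test than early alone (0.125). *Klhdc2*, a substrate receptor of a ubiquitin ligase, had 1869 to 2623 against 680.2 to 1639 (1.05 ± 0.17, limma adjusted p = 0.00386), and *Ppa1*, inorganic pyrophosphatase, 4518 to 6042 against 1786 to 4049.9 (0.76 ± 0.13, limma adjusted p = 0.00689, 0.0719 without the block). These 4 passed in every leave-one-out fit. *Muc1*, a membrane mucin, had a large change at low counts, with prePB at 177, 96.8, 189 and 149 normalized counts against 0.995 to 77.9. It passed in 8 of the 16 leave-one-out fits, and not when any 1 prePB library was left out.

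**Figure D3:**
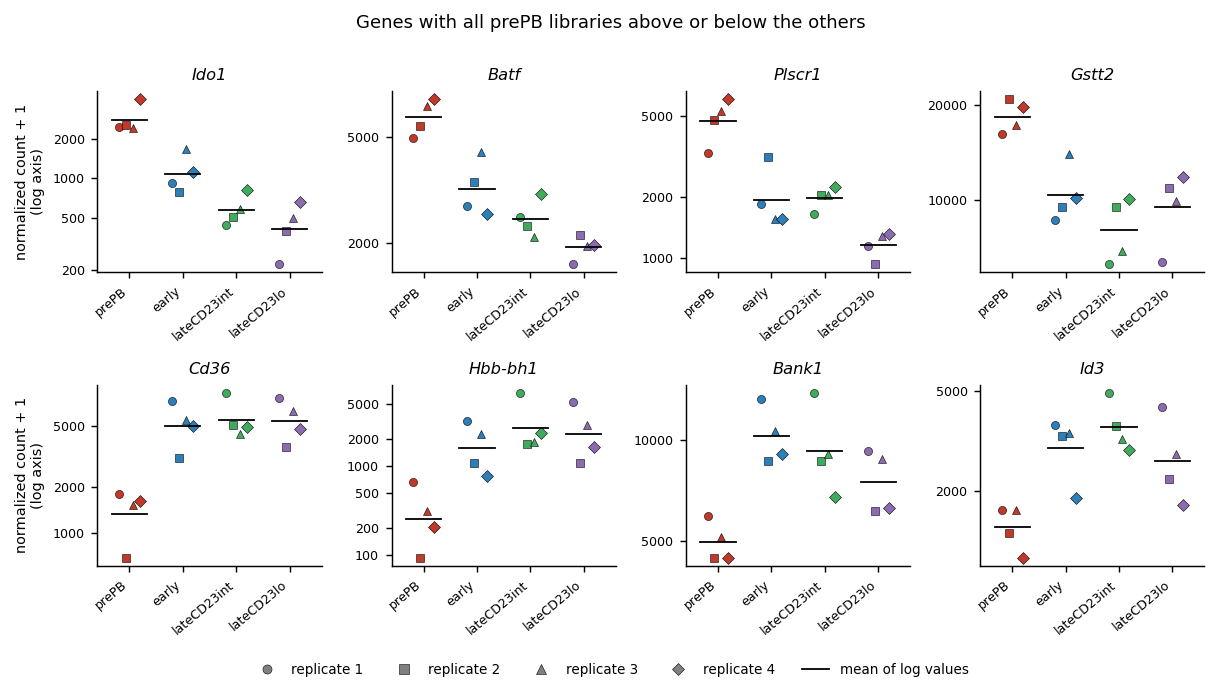
Normalized counts + 1 (log axis) of 4 higher and 4 lower genes that set prePB apart, in each library by subpopulation, with markers for the replicate and a line at the mean of the log values. For *Batf*, prePB lies at 4969 to 6937 and the others at 1667 to 4376, and for *Cd36* at 688 to 1795 and 3102 to 8289.8.

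The lower genes were led by *Cd36* and *Hbb-bh1*. *Cd36*, a scavenger receptor and fatty acid transporter found on marginal zone and GC B cells, had 1795, 688, 1522 and 1628 in prePB and 3102 to 8289.8 elsewhere, with a median of 5066. It was 4.01-fold lower (log2 fold change -2.0 ± 0.15, limma adjusted p = 3.06e-06, 0.000642 without the block), and the other 3 subpopulations had nearly equal means of 5247 ± 1729, 5700.2 ± 1746 and 5609 ± 1736 (SD, n = 4). *Hbb-bh1*, an embryonic globin of the β-globin cluster, had 650.2, 91.8, 310.2 and 206 against 777 to 6654 (-3.09 ± 0.22, limma adjusted p = 3.06e-06). Replicate 1 was highest in each subpopulation. The 10 erythroid and platelet markers, *Hbb-bh1* not among them, summed to 228 to 371 in prePB replicates 1 to 3, to 3181 in replicate 4 and to 480.5 to 5113 elsewhere. None of the 6 tested ones had a log2 fold change above 0. Their median was -1.44, and none was called. In prePB replicate 4, *Hbb-bh1* had 206 and the adult globin *Hba-a2* 1261. The part of red cells in the lower *Hbb-bh1* was not tested. The adult globin *Hbb-bt* of the same cluster had 103 to 357 against 195 to 1367 and did not pass (limma adjusted p = 0.108).

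Several genes of B cell receptor (BCR) signalling and of B cell identity were lower. *Bank1*, an adaptor of BCR signalling, had 5941, 4466, 5155 and 4467 against 6121 to 13758 (-0.84 ± 0.10, limma adjusted p = 0.000348). *Vpreb3*, a chaperone-like partner of the BCR, had 3504, 3436, 2623 and 2914 against 4171 to 7181 (-0.85 ± 0.11, limma adjusted p = 0.000649). *Id3*, an inhibitor of E proteins, had 1672, 1359.6, 1679 and 1079 against 1751 to 4921 (-1.09 ± 0.13, limma adjusted p = 0.000421). None of these overlapped, and each passed against all 3 subpopulations and in all 16 leave-one-out fits. Of 25 BCR signalling components, 6 were lower and none higher, while 1.06% of all tested genes were lower. The 6 were *Cr2*, *Cd72*, *Cd79b*, *Prkcb*, *Lyn* and *Cd79a*. Without the block only *Cr2* passed, which encodes CD21/35, a marker on which the other subpopulations were gated. *Prkcb*, *Lyn* and *Cd79a* passed in 13, 11 and 4 of the 16 leave-one-out fits. *Cd72*, an inhibitory coreceptor, had 18222, 6888, 10883 and 8527 against 10148 to 30924 (-0.83 ± 0.13, limma adjusted p = 0.00322, 0.158 without the block). *Cd79b*, a signalling chain of the BCR, had 29719, 13399.7, 20400 and 16693 against 19870.2 to 47696 (-0.60 ± 0.10, limma adjusted p = 0.00557, 0.343 without the block and 0.0518 without prePB replicate 2). For both, replicate 1 was highest in each subpopulation, and prePB was lowest within each number.

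Against 1.06% of all tested genes, 4 of 22 B cell identity factors were lower and none was higher. They included *Id3*, *Ets1* and *Bcl6*, of which only *Id3* passed without the block. *Ets1*, which restrains plasma cell differentiation, had 10419.7, 10179, 10637 and 7746 against 11313 to 21515 and did not overlap (-0.64 ± 0.12, limma adjusted p = 0.0129, 0.117 without the block), but passed in 13 of the 16 leave-one-out fits and not without prePB replicate 1, 3 or 4 (0.0805, 0.0657 and 0.0914). *Bcl6*, a transcriptional repressor that the GC program requires, had 2204, 1796, 1476 and 1238 against 1739 to 4242 (-0.55 ± 0.13, limma adjusted p = 0.0392). It passed in 5 of the 16 leave-one-out fits. *Pax5*, which sets B cell identity, had 1758 to 2802 against 2451 to 3778 and did not pass (limma adjusted p = 0.269), nor did *Bach2* (limma adjusted p = 0.187). Of 13 dark zone genes 1 was lower, and of 18 light zone genes 2 were higher (*Nfkbia*, *Ly75*) and 1 lower (*Cr2*). Unlike the other subpopulations, prePB was not gated by zone. *Ly75*, an endocytic receptor, had 2114, 2799, 2031 and 2607 against 674 to 1928 (0.89 ± 0.17, limma adjusted p = 0.0155), and did not pass without any 1 prePB library (0.0521, 0.0936, 0.0554 and 0.0714).

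Of 21 memory B cell genes, 3 were lower, among them the adhesion molecules *Pecam1* and *Itgb7*, and none was higher. Of all tested genes, 1.06% were lower. *Pecam1* had 552, 299, 779.9 and 241 in prePB against 489 to 1326, with overlap (-0.97 ± 0.22, limma adjusted p = 0.0392, 0.121 without the block). *Itgb7*, an integrin chain, had 1.07, 0, 0 and 77.5 against 14.4 to 113, and prePB replicate 4 lay within the others (-3.74 ± 0.89, limma adjusted p = 0.0464, 0.104 without the block). They passed in 5 and 3 of the 16 leave-one-out fits. Naive and marginal zone B cell markers, 12 in all, summed to 13898 to 18617 in prePB and to 10124 to 21168 in lateCD23lo. In early and lateCD23int they summed to 19371 to 34024. The most abundant were *Fcer2a* and *Cr2*, whose products were used to gate early, lateCD23int and lateCD23lo but not prePB. Differences between these sums may therefore follow the gates, and the part of cell state in them was not tested. *Rgs18* and *Il5ra*, a regulator of G protein signals and the interleukin-5 receptor chain, were called against each group although their values overlapped. *Il5ra* had 169.8, 8.27, 29.8 and 6.31 in prePB against 88.7 to 982 (-3.70 ± 0.45, limma adjusted p = 0.000421).

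Several lower genes were nearly silent in prePB. *Ppfia4*, a liprin, and *Gcnt3*, a glycosyltransferase, had at most 3 reads in each prePB library and 12.2 to 155 and 15.3 to 166 normalized counts elsewhere. Against a floor of 3 reads per library they were at least 25.2-fold and 20.9-fold lower (limma adjusted p = 0.00179 and 0.00443). *Gramd1c*, a sterol transfer protein, had 0, 42.2, 4.51 and 0 in prePB against 80.8 to 244 (-5.24 ± 0.71, limma adjusted p = 0.00106). By edgeR on the reads it did not pass (adjusted p = 0.0587). *Lifr*, the receptor of leukemia inhibitory factor, had 1.07 to 4.96 in prePB, 26.2 to 461 in early and lateCD23int and 6.55 to 18.4 in lateCD23lo. It did not differ from lateCD23lo by the test (limma adjusted p = 0.415) and did not pass without prePB replicate 1, 3 or 4 (0.084, 0.0572 and 0.0757). *Acp5*, an acid phosphatase, had 238 to 532 against 603 to 1625 (-1.26 ± 0.20, limma adjusted p = 0.00357, 0.0529 without the block), and *Cep57*, a centrosome protein, 2665 to 3330 against 4012 to 6328 (-0.67 ± 0.11, limma adjusted p = 0.00557).

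Of 24 genes of T cell help and antigen presentation, 1 was called. *Tnfsf9*, the ligand of the costimulatory receptor 4-1BB, had 3401, 1755, 2328 and 1384 in prePB against 622 to 2145 (0.89 ± 0.15, limma adjusted p = 0.00557, 0.121 without the block and 0.0536 without prePB replicate 3). Of 22 migration and adhesion genes, *Emp1*, a membrane protein, was higher, at 55.4 to 272 against 0 to 72.4 (4.11 ± 0.99, limma adjusted p = 0.0465), and 4 were lower, among them *Pecam1* and *Itgb7* as above and *Rgs13*, a regulator of chemokine receptor signals (-0.59 ± 0.14, limma adjusted p = 0.0406). *Emp1* and *Rgs13* each passed in 4 of the 16 leave-one-out fits, and in none of those without a prePB library. Of 18 immediate early genes, *Klf6*, a zinc finger factor, was lower (-0.82 ± 0.19, limma adjusted p = 0.0374) and passed in 6 of these fits. None of 15 genes of the BCL2 family and none of 9 transcripts used to follow RNA quality was called, with median log2 fold changes of 0.144 and -0.169. None of these 9 transcripts had a log2 fold change above 0, also under rescaling to 1 total and quantile normalization.

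**Figure D4:**
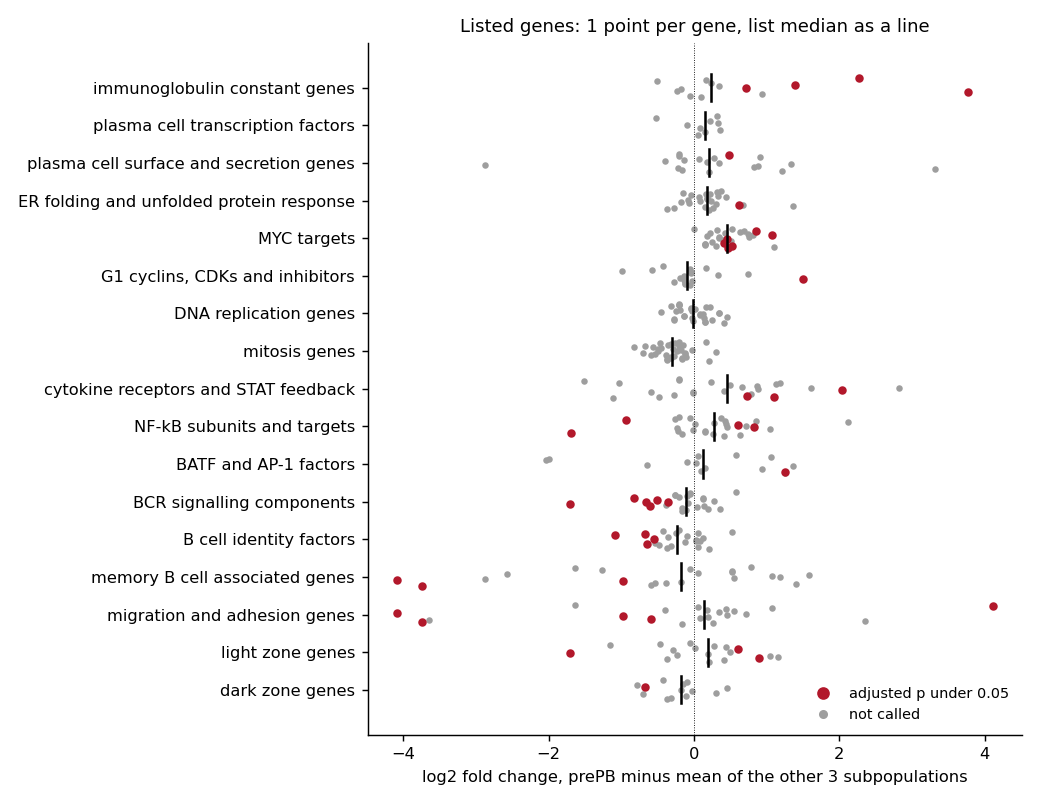
Log2 fold changes of prePB against the mean of the others (x axis) for the tested genes of 17 lists (rows), 1 point per gene, dark red where the limma adjusted p was under 0.05, with a line at each list's median. All 30 MYC targets lie above 0 and 31 of 34 mitosis genes at or below it, while called genes of the BCR signalling and B cell identity lists lie below 0.

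Genes of the sorting markers are described only, as the gates chose them. *Cd69* had 5346, 2862, 3165 and 2439 in prePB and 1451 to 6126 elsewhere (0.23 ± 0.14, limma adjusted p = 0.478), and its values overlapped. *Cr2*, encoding CD21/35, had 2939, 1057, 1472 and 1970.2 against 2633 to 9349.5 (-1.71 ± 0.18, limma adjusted p = 0.000105). *Fcer2a*, encoding CD23, had 3404 to 11102 in prePB and 1285 to 17966 elsewhere (limma adjusted p = 0.822). *Ptprc*, encoding B220, was lower (-0.52 ± 0.09, limma adjusted p = 0.00799, 0.182 without the block and 0.0717 without prePB replicate 4), while *Cd38*, *Fas*, *Cd86* and *Cxcr4* did not pass (limma adjusted p = 0.74, 0.485, 0.226 and 0.612).

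Against single subpopulations, prePB had 28 genes higher (0.224%) and 37 lower (0.296%) than early, 37 (0.296%) and 84 (0.672%) than lateCD23int, and 90 (0.72%) and 102 (0.816%) than lateCD23lo. The 3 comparisons share the prePB libraries. Genes called in the same direction in all 3 were 6 higher (0.048%) and 18 lower (0.144%). The 6 were *Ccnd2*, *Ido1*, *Plscr1*, *Gstt2*, *Batf* and *Igha*. The 18 included *Cd36*, *Hbb-bh1*, *Vpreb3*, *Id3*, *Bank1*, *Gramd1c*, *Ppfia4* and *Gcnt3*, and also *Rgs2*, *Btg1* and *Stk17b*, whose values overlapped and, for *Rgs2* and *Btg1*, did not pass without the block (limma adjusted p of the pooled comparison 0.232 and 0.18). Within the replicate numbers, prePB lay above the other 3 libraries in 4 of 4 numbers for 230 tested genes (1.84%) and below them for 257 (2.06%), which included 68 of the 78 genes called higher and 100 of the 133 called lower.

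**Figure D5:**
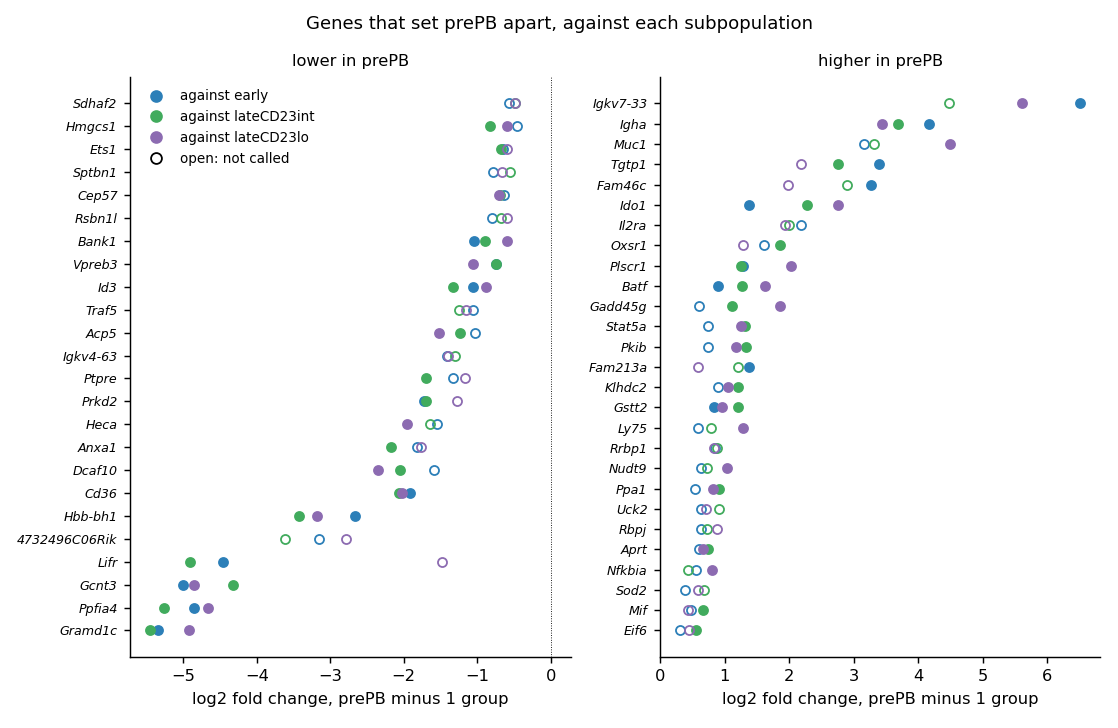
Log2 fold changes of prePB against early, lateCD23int and lateCD23lo (x axis) for the genes that set prePB apart (rows), the 24 lower and all but 1 of the 28 higher ones, filled where the limma adjusted p was under 0.05. Of these genes, 8 lower and 5 higher ones are filled in all 3 colors, among them *Cd36*, *Hbb-bh1*, *Batf* and *Igha*.

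Markers of other cell types were summed per library. Erythroid and platelet markers, given above beside *Hbb-bh1*, reached 3181 in prePB and 5113 elsewhere. T cell markers, 12 in all, summed to 127 to 620.4 normalized counts in prePB and 224 to 515 elsewhere, with *Cd3e*, *Cd3g*, *Cd4* and *Cd8a* under the filter. Macrophage and monocyte markers, 13 in all, summed to 349.8 to 985 and 367 to 1659, dendritic cell markers, 8 in all, to 1153 to 1874 and 1045 to 1548, and the 9 neutrophil markers to 0 in prePB and at most 46.9 elsewhere. NK cell markers, 8 in all, summed to 15.3 to 74.8 in prePB and 0 to 122 elsewhere. One of them, *Nkg7*, was higher in prePB, at 15.3 to 47.8 against 0 to 18.7 (limma adjusted p = 0.0392, passing in 5 of the 16 leave-one-out fits), while *Klrb1c* and *Prf1* had at most 3.31 there. Stromal markers, 10 in all, summed to 243 to 833 in prePB and 494 to 1382 elsewhere, with *Pecam1* the most abundant. The part of other cells in the results above was not tested.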

How the data were processed

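Total RNA of 16 sorted libraries, 4 per subpopulation, was sequenced. The deposited values are a signal, gene counts that the authors divided by 1 size factor per library. Of these, 100% were whole multiples (tolerance 0.01 reads) of the smallest value above 0 in their library, which was taken as 1 read. The recovered reads, which may be rounded estimates, entered the count tests. The submitters' processing notes name Trimmomatic 0.36, STAR 2.5.2a, RSEM 1.2.31, DESeq2 1.20.0, R 3.5.1 and GRCm38. The annotation and the strand setting are not given in the sources used here, so that overlapping antisense genes cannot be told apart.

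Genes with a mean of at least 10 (12505 of 51912) were fitted on log2(value + 1) by limma 3.58.1 (R 4.3.3) with trend, group and replicate number over all 16 libraries. Fold changes are on that scale and understate those of low genes. Adjusted p-values (Benjamini-Hochberg, threshold 0.05) cover all tested genes. Alternatives were edgeR 4.0.16, DESeq2 1.42.0, other scalings, pseudocounts and filters, no block and each library left out. The limma fit was tested on simulated data. Floors of 3 reads cover counting error only, as no molecular identifiers are mentioned for the reads. Coordinates are from GENCODE (12484 genes matched).

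Named were, of the genes that set prePB apart, the 10 with the smallest p and the 5 with the largest log2 fold change in each direction, all sorting markers, and up to 3 members of each list by p. Called list members, *Sod2*, *Fam46c*, *Rgs18*, *Il5ra*, *Rgs2*, *Btg1*, *Stk17b*, the globins and further known markers were named after their values were seen. The members and gene lists were chosen with earlier results of these data known. Some genes of the lists and of those set apart are not reported here.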

Additional observations from a re-analysis of the deposited data

Results flagged for a closer look

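Among 328 groups of 4 libraries, 25 (7.62%) held a library far from the other three by Dixon's test, which chance gives in about 1 in 20 groups. Of these, 11 were in prePB.

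In prePB, replicate 1 stood apart 6 times. It was lowest for *Myc* (2300.0 normalized counts, the others 4165 to 4417), *Cdk4* (6019, 8344 to 8720.5), *Egr2* (258, 789.8 to 948) and *Ldha* (11966, 21875 to 24452). It was highest for *Cxcr4* (248, 118 to 129.8) and the mitochondrial gene *mt-Nd5* (18899, 8493 to 9322). PrePB replicate 2 was lowest for *Tk1* (1817, 2865 to 2989). PrePB replicate 4 was lowest for *Ets1* (7746, 10179 to 10637) and *Zbtb20* (2610.5, 4242 to 4631), and highest for *Ido1* (3990.1, 2391 to 2531) and *Itgb7* (77.5, 0 to 1.07).

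In early, replicate 1 was lowest for *Ccnd2* (4280.2, 6611 to 6965) and *Tgtp1* (8.38, 210.4 to 254), replicate 3 highest for *Cxcr4* (109, 72.2 to 72.6) and replicate 4 lowest for *Id3* (1875, 3296 to 3677). In lateCD23int, replicate 1 was highest for *Bid* (12335, 10517 to 10568) and *Lifr* (461, 71.2 to 93.4), replicate 2 for *Mki67* (15103, 12152 to 12510.3) and *Zbtb20* (4687, 2719.6 to 2859), and replicate 3 for *Stat5a* (677, 467 to 492).

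In lateCD23lo, replicate 1 was lowest for *Cd38* (1409.6, 1889 to 1916), *Rrm2* (12162, 22581 to 24478) and *Srm* (688, 1681 to 1798). Replicate 2 was highest for *Tk1* (5042, 3822 to 3996). Replicate 4 was lowest for *Itgb7* (33.7, 47.7 to 50).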

How the results depend on the processing

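The fit used here called 78 genes higher and 133 lower in prePB, of which 28 and 24 set it apart, 65, 121 and 192 genes against early, lateCD23int and lateCD23lo, and 24 against each of them. Without the replicate block these were 13, 26, 11, 14, 24, 18, 33 and 5. With limma without a trend they were 24, 39, 12, 13, 29, 23, 53 and 8. With no filter on low values, 39 and 69 genes were called, 18 higher ones set prePB apart, and 41, 60 and 92 were called against the single subpopulations. DESeq2 with the block called 241, 372, 337, 427, 774 and 100, in the same order without the genes set apart. Requiring prePB to lie beyond only the libraries of its own number, a criterion chosen after seeing the data, gave 68 and 100 genes in place of 28 and 24. Leaving out 1 library gave 22 to 111 genes higher, 54 to 188 lower, 13 to 30 and 17 to 46 set apart, 33 to 80, 35 to 141 and 42 to 344 against early, lateCD23int and lateCD23lo, and 13 to 30 against each.

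Whether the replicate numbers pair the libraries is not settled. Same-numbered libraries had a mean correlation of deviations of 0.051 over 12505 genes. Single pairs ranged from -0.129 to 0.174, with 5 of 24 over 0.1, and 10 of 16 libraries correlated best with one of their own number. Over 3651 genes with a mean of at least 1000 the mean correlation was 0.259. There the pairs ranged from -0.592 to 0.701, with 17 of 24 over 0.1. Without the block, 25 of 51 called genes that the rule names lost the call. None of the 86 named genes changed direction under any alternative, and of 2319 values 2078 kept their side of the threshold, 203 lost the call and 38 gained it. The cause of these changes was not tested.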
